A study of Mus musculus with 45 samples.

Results

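Hepatic stellate cells (HSCs) from mice treated with carbon tetrachloride (CCl4) for 4 weeks were compared with HSCs from mice treated for 1 week. The comparison holds 7 of the 45 libraries in the series, 4 from 4 weeks (A to D) and 3 from 1 week (A to C), chosen by their sample titles. It asks how the response to a first week of injury differs from the response to repeated injury. All mice were male mice, labelled C57BL6/J and given as C57BL/6JBomTac in the study's methods, with no engineered allele named in the labels. CCl4 in corn oil was given by oral gavage 2 times a week after fasting overnight. The vehicle mice (4 libraries) received corn oil for 8 weeks, and a further 3 libraries came from mice given CCl4 for 8 weeks. The age of these mice was not given in the sources used here. There was no 1-week or 4-week vehicle group, so time under gavage and time under CCl4 cannot be told apart. HSCs were isolated on a density gradient and sorted as live cells by their retinoid autofluorescence, so cells that had lost their retinoid were not collected.

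HSCs lie between hepatocytes and the sinusoidal endothelium and in their quiescent state store vitamin A in lipid droplets. CCl4 is turned into a radical by cytochrome P450 in hepatocytes and kills them. The HSCs respond by proliferating and becoming myofibroblasts that make collagen matrix, and when the injury ends part of them returns to a less active state.

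Each library holds exon read counts for 23999 rows, and the rows could not be tied to genes. Among 1573 identifiers of olfactory, vomeronasal and taste receptors, defensins and keratin-associated proteins, which liver cells hardly use, 64.0% had a mean count of at least 1, against 64.9% of all identifiers. The row listed as Col1a1, the main fibrillar collagen, had no read in any of the 14 CCl4 libraries. Rows are therefore treated as unnamed genes and are cited by their place in the table, and HSC markers, gene groups, promoters and proteins were not read. For the same reason no marker of another cell type could be checked. The paper holds macrophage mRNA to be the likelier source of Spi1 and SpiC in its in vivo preparations. It also speculates that hepatocyte mRNA entered the libraries of diet-fed mice. How far transcripts of other cells contribute to the changes below was not tested. In bulk RNA, fewer cells with a transcript and less of it per cell cannot be told apart.

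Total counts were between 3627173 and 7576527 in the 7 libraries, and the 1-week libraries were on average the deeper group, with 6279460 ± 1475044 counts (SD, n = 3) against 4360729 ± 515830 (SD, n = 4). A count of 3, taken as the floor, was between 0.396 and 0.827 CPM (counts scaled to a common library size). This floor covers counting error only. The labels also carry library numbers. The vehicle, 4-week and 8-week libraries form one run of numbers, whereas the numbers of the 1-week libraries lie apart from it and directly follow those of a separate Western diet experiment. What the numbers record is not stated. The week of treatment and the number series cannot be told apart within the CCl4 libraries, so the chow-fed controls of the diet experiment (4 libraries, mice of 30 weeks of age) are given beside the vehicle controls below.

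Expression in the sorted HSC preparations changed in both directions between 1 and 4 weeks. In edgeR's quasi-likelihood test, 2791 rows were called higher at 4 weeks and 2809 lower, of 12217 rows with an average log2CPM above 2 over the compared libraries. These are 22.8% and 23.0% of the rows. A call required a Benjamini-Hochberg adjusted p (FDR) of at most 0.05 over all 13513 rows tested. The balance depends on the scaling of the libraries. When libraries were scaled by their totals alone, without TMM factors, 3622 rows were higher and 2142 lower, since the median log2 fold change of all rows moved up by 0.13. Rows called higher had a median log2 fold change of 0.89, and rows called lower had a median of -0.84. Of the rows called higher, 1151 (41.2%) changed at least 2-fold and 322 (11.5%) at least 4-fold. Of the rows called lower, 1073 (38.2%) fell at least 2-fold and 174 (6.19%) at least 4-fold. The 1-week and 4-week libraries did not overlap in 2554 of the rows called higher (91.5%) and 2681 of those called lower (95.4%), compared with 50.7% of all rows tested.

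**Figure D1:**
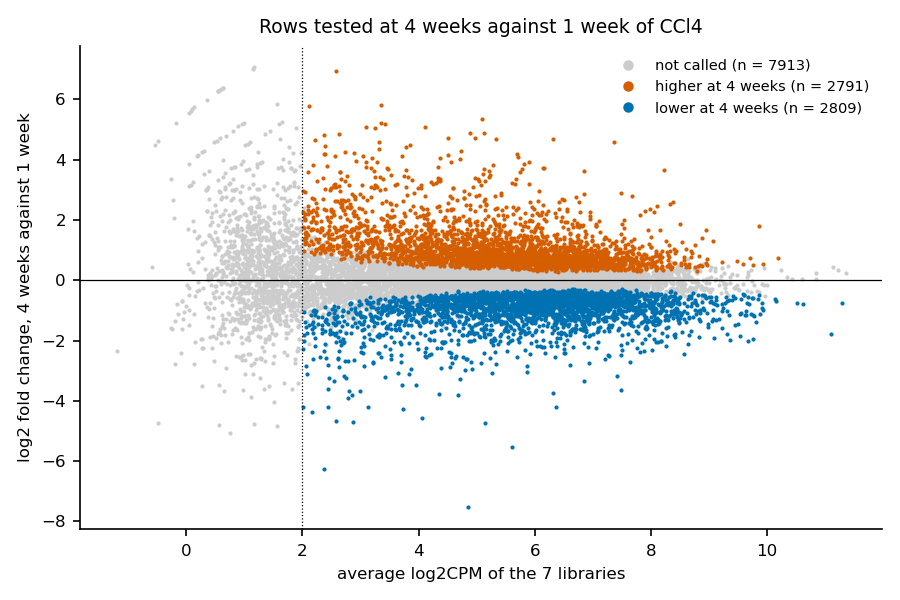
Log2 fold change of each tested row at 4 weeks against 1 week of CCl4 (vertical axis), plotted against its average log2CPM over the 7 libraries (horizontal axis). The dotted line marks the log2CPM of 2 that a call required, and calls of both directions, 2791 higher and 2809 lower, reach across the whole range of abundance.

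The 2 directions differed in abundance. Rows were divided by their average log2CPM into 4 bins of equal size. Lower calls made up 14.2% of the least abundant bin and 31.9% of the most abundant, whereas higher calls made up 23.1% and 20.7%. The abundance of a row also sets how small a change the test can call, and the part of this was not tested. The change in abundant rows moved a large share of the reads. Rows called lower held between 40.1% and 40.5% of all counts in the 1-week libraries and between 18.6% and 26.7% in the 4-week libraries. Rows called higher held between 12.3% and 13.1% at 1 week and between 22.3% and 29.6% at 4 weeks. These shares follow from the choice of the rows. The vehicle and 8-week libraries were on neither side of the comparison, but they were in the same fit and helped to set its filter and spread. In vehicle libraries the rows called lower held between 39.7% and 40.9% and the rows called higher between 12.8% and 13.7%, inside or close to the 1-week ranges. In 8-week libraries these shares were 20.0% to 24.3% and 24.7% to 28%, inside the 4-week ranges.

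The most abundant rows with a call are given as single cases, while the shares are spread over all rows called. Row 11319 had 3315, 3616 and 4223 CPM in the 1-week libraries A, B and C and 410, 1156, 1399 and 1342 CPM in the 4-week libraries A, B, C and D (log2 fold change -1.79 ± 0.316 SE, FDR = 0.000433 by edgeR). The groups did not overlap, and 4-week library A was far below the other 4-week libraries. Row 7597, the most abundant called row, was at 3031, 3266 and 3561 CPM at 1 week and at 1411, 2136, 2050 and 2146 CPM at 4 weeks (-0.76 ± 0.208, FDR = 0.00807 by edgeR), again with library A lowest. Row 2951 had 1830, 1965 and 2390 CPM at 1 week and 754, 1283, 1393 and 1389 CPM at 4 weeks (-0.78 ± 0.202, FDR = 0.0063 by edgeR). None of these 3 rows was called at 1 week against vehicle. Among rows called higher, row 20813 was the one that changed most of the 3 most abundant, from 423, 312 and 421 CPM at 1 week to 921, 1352, 1610 and 1475 CPM at 4 weeks (1.80 ± 0.210, FDR = 1.95e-05 by edgeR). Row 6798 rose from 821, 902 and 809 CPM to 1222, 1865, 1005 and 1571 CPM (0.75 ± 0.222, FDR = 0.0134 by edgeR). Row 8241 rose from 676, 875 and 772 CPM to 995, 1371, 1070 and 1104 CPM (0.55 ± 0.183, FDR = 0.0232 by edgeR). In each of the 6 rows every 4-week library lay on the same side of every 1-week library.

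Whole libraries were placed on the line between the vehicle and the 8-week means of log2(CPM + 1), where vehicle is at 0 and 8 weeks at 1. The 1-week libraries were at 0.510, 0.471 and 0.475 and the 4-week libraries at 1.02, 0.854, 0.806 and 0.839. The means were 0.485 ± 0.021 (SD, n = 3) and 0.880 ± 0.096 (SD, n = 4), a difference of 0.395 (exact permutation test, two-sided p = 0.0571). This is the smallest p that 3 against 4 libraries allow, so the design cannot reach 0.05. The line from chow to 24 weeks of Western diet, which rests on other mice, gave the same order. Here the 1-week libraries were between 0.258 and 0.312 and the 4-week libraries between 0.488 and 0.628, with means of 0.281 ± 0.028 (SD, n = 3) and 0.531 ± 0.066 (SD, n = 4; exact permutation test, two-sided p = 0.0571, again the smallest possible). On both lines 4-week library A was farthest along, and it was also the shallowest of the 7 libraries. The median level per library differed by 0.016 on the log2(CPM + 1) scale (5.31 ± 0.019 SD, n = 3, at 1 week and 5.32 ± 0.009 SD, n = 4, at 4 weeks; exact permutation test, two-sided p = 0.171).

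**Figure D2:**
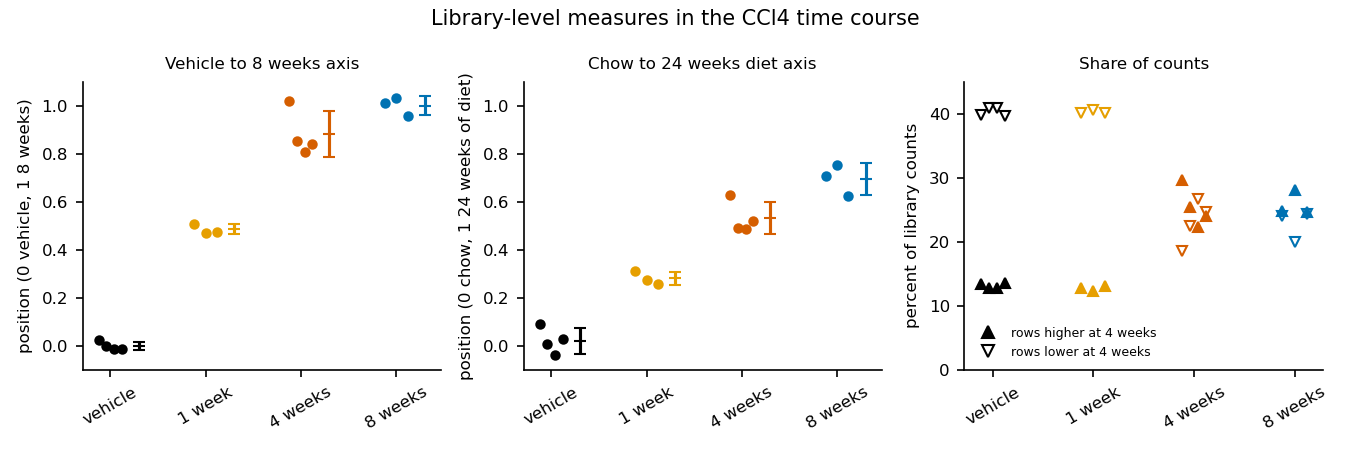
Position of each CCl4 library on the vehicle to 8 weeks line (left) and the chow to 24 weeks of Western diet line (middle), with mean and SD beside the points, and the percent of its counts in rows called higher (filled) or lower (open) at 4 weeks (right). The 1-week libraries lie about midway on the left line at 0.471 to 0.510 and the 4-week libraries at 0.806 to 1.02, while in the right panel the 1-week shares lie beside those of vehicle.

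Between replicates, 1-week libraries were 0.295 to 0.436 apart (root mean square of the log2 differences) and 4-week libraries 0.383 to 0.756, with library A farthest from the others of its group at a mean of 0.666. Distances from 1-week to 4-week libraries were 0.753 to 1.21. The lowest of these is just under the highest distance within 4 weeks. By this measure a 1-week library was 0.905 to 1.09 away from vehicle, and a 4-week library was 0.421 to 0.858 away from an 8-week library.

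Rows were then sorted by whether they had been called at 1 week against vehicle. At 1 week, 1864 rows were called higher than vehicle and 1328 lower, which is 15.6% and 11.1% of the rows above the level threshold. The rows called higher at 4 weeks than at 1 week fell into 538 that had already risen (further gains, 19.3%), 1747 not called at 1 week (late gains, 62.6%) and 506 that had been repressed at 1 week (recovered, 18.1%). The rows called lower fell into 207 that had already been repressed (further repression, 7.37%), 2125 not called at 1 week (new repression, 75.6%) and 477 that had risen at 1 week (reversed, 17%). The late and new classes were the largest in each direction. Over all rows, too, most were not called at 1 week, as 15.6% were called higher and 11.1% lower. The size of these classes is therefore not by itself a trait of the rows called. Of the 1747 late gains, 170 had passed the FDR at 1 week and were uncalled there because of their low level, compared with 2 of the 2125 newly repressed rows. Both steps use the same 1-week libraries, so an error in these libraries enlarges the recovered and reversed classes and shrinks the further ones. The size of the smaller classes also depends on which libraries are included. Without 1-week library A there were 205 recovered, 77 further repressed and 270 reversed rows, and without B there were 203, 70 and 213. All calls fell too, to 1943 higher and 2276 lower without A and to 1970 and 2167 without B. The loss of calls from a smaller group was not separated from this. Further repression held 125 rows without 1-week library C and 131 without vehicle library D.

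Seen from the 1-week response, 28.9% of the 1864 risen rows gained further, 25.6% reversed and 849 (45.5%) were not called between 1 and 4 weeks. Of the 1328 rows repressed at 1 week, 15.6% fell further, 38.1% recovered and 615 (46.3%) were not called. Over all rows above the level threshold, 22.8% were called higher and 23.0% lower at 4 weeks than at 1 week. The reversed share of the risen rows was thus near that over all rows. A row without a call may still have changed by less than these replicates resolve.

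**Figure D3:**
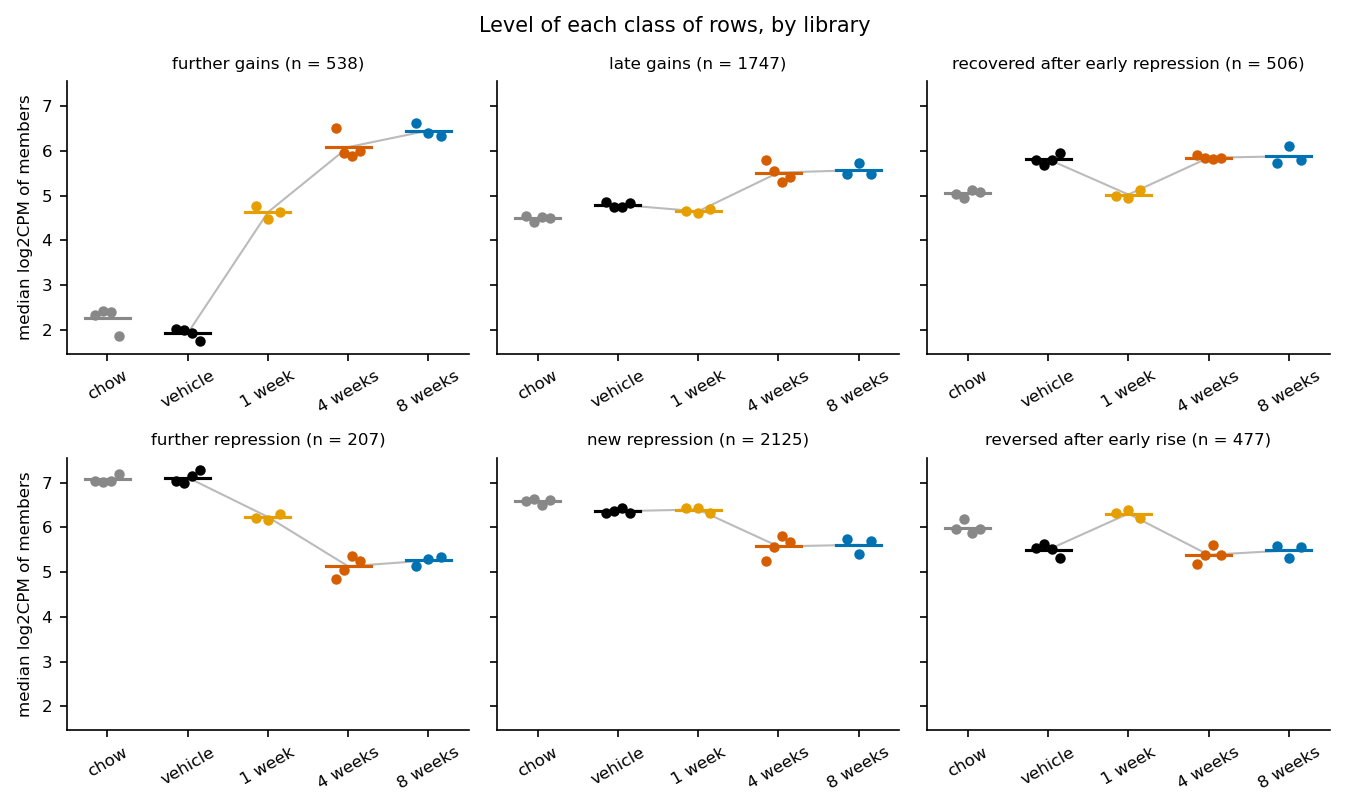
Median log2CPM over the members of each class in every library (points) with the group mean (bars), for chow, vehicle and 1, 4 and 8 weeks of CCl4, all scaled together. Levels of vehicle, 1 week and 4 weeks follow from how the classes were chosen. The 8-week libraries entered the fit only through its filter and spread and chow did not enter it, and the chow libraries of the recovered class (4.94 to 5.12) lie at the level of 1 week (4.94 to 5.13) and below vehicle (5.69 to 5.96).

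Further gains were mainly rows that were low in vehicle HSCs. Their median log2CPM per library was 1.74 to 2.01 in vehicle, 4.49 to 4.77 at 1 week and 5.88 to 6.51 at 4 weeks. The first step was the larger: the median log2 fold change was 2.40 from vehicle to 1 week and 1.25 from 1 to 4 weeks, and in 96 of the 538 rows (17.8%) the second step exceeded the first. At 8 weeks, which is on neither side of the contrasts that define the class, it was at 6.34 to 6.63. The row that changed most was row 12137, with 13.5, 8.13 and 13.7 CPM at 1 week and 546, 197, 153 and 224 CPM at 4 weeks (log2 fold change 4.57 ± 0.438 SE, FDR = 5.09e-06 by edgeR). Its vehicle libraries were between 0.755 and 3.52 CPM. Vehicle, 1-week and 4-week libraries did not overlap, as the choice of the row required. Row 21677 went from 6.4, 4.38 and 9.31 CPM to 146, 74.9, 85.1 and 95.1 CPM (3.93 ± 0.357, FDR = 3.47e-06 by edgeR). Its vehicle libraries did not exceed 2.25 CPM.

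Late gains were rows of moderate level. Their median per library was 4.74 to 4.86 in vehicle and 4.61 to 4.69 at 1 week, and it was 5.30 to 5.79 at 4 weeks and 5.49 to 5.73 at 8 weeks. The middle 50% of these rows had log2 fold changes between -0.32 and 0.32 at 1 week against vehicle. At 4 weeks against 1 week the median was 0.84. The largest changes were in rows with few or no reads in vehicle. Row 17921 had 0, 0.313 and 0.698 CPM at 1 week and 25, 23.4, 9.80 and 12.5 CPM at 4 weeks (5.83 ± 0.655, FDR = 3.37e-05 by edgeR), and was at 0 in the 4 vehicle libraries. Row 261 had 2.27, 0.782 and 0.931 CPM at 1 week and 73.3, 85.0, 25.5 and 50.7 CPM at 4 weeks (5.36 ± 0.453, FDR = 2.01e-06 by edgeR). Row 261 had an FDR of 0.0258 at 1 week by edgeR but lay below the level threshold there.

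Further repression was the smallest class, and here the second step was the larger. The median per library went from 7.0 to 7.27 in vehicle to 6.17 to 6.31 at 1 week and 4.86 to 5.36 at 4 weeks. The median log2 fold change was -0.72 in the first step and -1.01 in the second, and the second was the larger in 156 of the 207 rows (75.4%). Row 11184 was at 79.0, 55.7 and 60.5 CPM at 1 week and at 0.258, 0, 0.392 and 0.647 CPM at 4 weeks (-7.53 ± 0.370, FDR = 1.5e-08 by edgeR), the largest fall of all tested rows. Its 4-week values correspond to 1, 0, 2 and 3 reads, all at or under the floor, so the size of the fold is imprecise. In vehicle it was between 88.8 and 149 CPM. Row 6781 fell from 17.2, 12.0 and 14.9 CPM to 0.258, 0.211, 1.37 and 0.216 CPM (-4.70 ± 0.474, FDR = 7.09e-06 by edgeR).

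New repression held the most rows and the most reads. Its 2125 rows took 31.8% to 32.1% of the counts at 1 week and 14.5% to 21.3% at 4 weeks, and in vehicle they had taken 31.9% to 33.3%. The median per library was 6.33 to 6.43 in vehicle, 6.33 to 6.43 at 1 week, 5.26 to 5.81 at 4 weeks and 5.41 to 5.73 at 8 weeks. The median log2 fold change was -0.83 between 1 and 4 weeks. Row 5163 had 44.0, 29.9 and 30.7 CPM at 1 week and 0.774, 1.27, 1.96 and 1.72 CPM at 4 weeks (-4.55 ± 0.523, FDR = 1.74e-05 by edgeR). Row 6147 fell from 34.2, 22.7 and 25.1 CPM to 0.516, 0.422, 2.16 and 2.37 CPM (-4.26 ± 0.462, FDR = 1.12e-05 by edgeR). In both rows the vehicle libraries reached at least 16.2 CPM and no 4-week library came near the 1-week range.

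**Figure D4:**
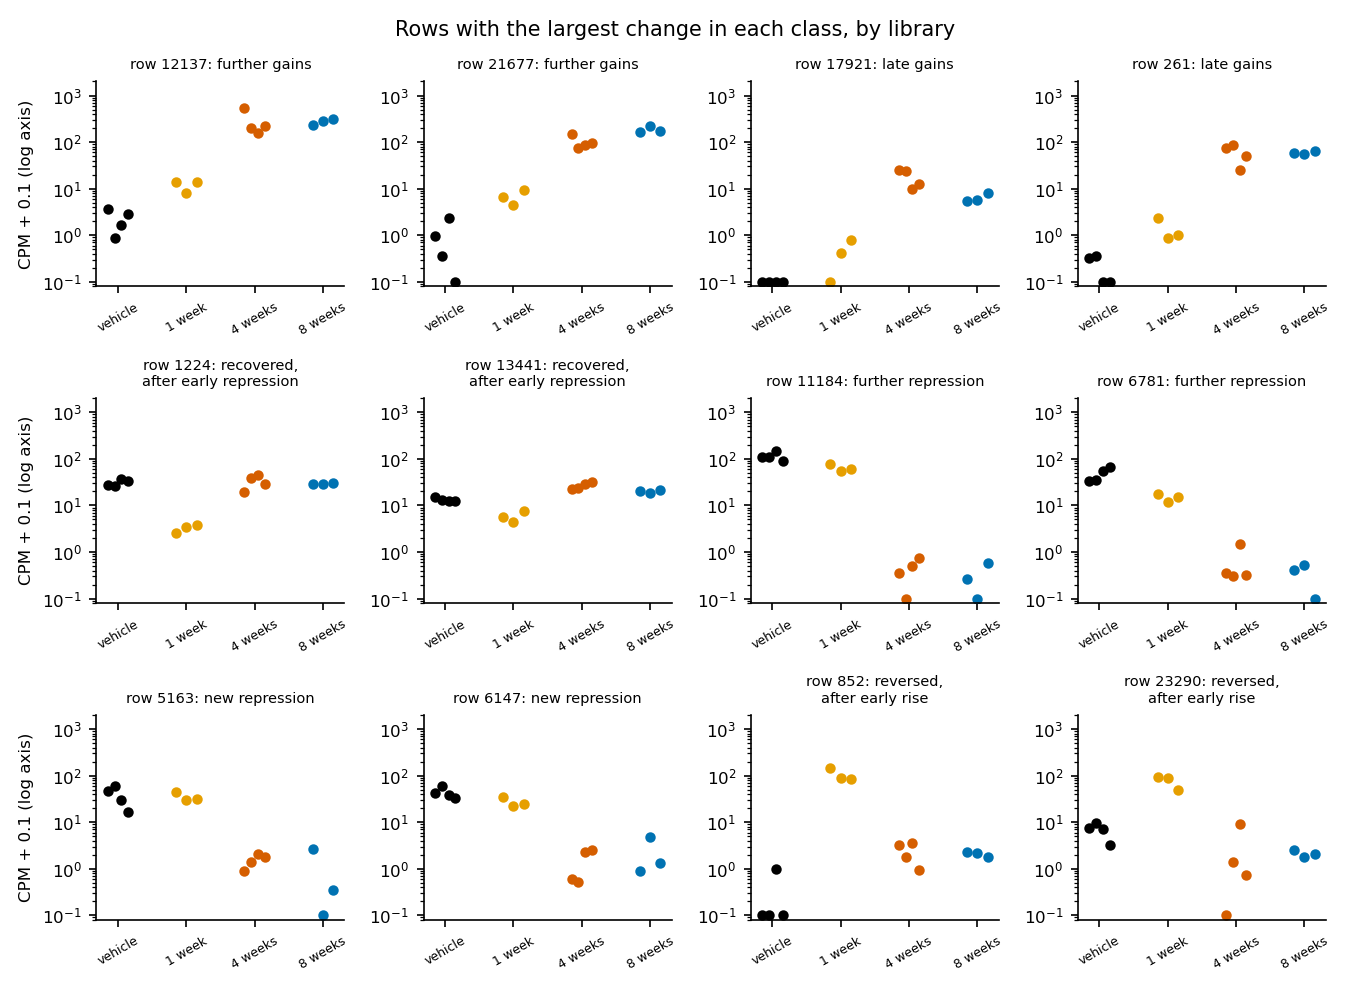
CPM + 0.1 in every CCl4 library (log axis) of the 2 rows that changed most between 1 and 4 weeks in each class. The 12 rows were picked among those whose 1-week and 4-week libraries do not overlap, and rows 852 and 23290 are high in the 1-week libraries alone.

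The recovered and reversed classes were at the vehicle level at 4 weeks. Their rule already required the second step to run against the first. Chow, described below, lay at the 1-week level in the recovered class (4.94 to 5.12 against 4.94 to 5.13). In the reversed class it lay between vehicle and 1 week. Whether the rows of either class returned over time was not tested. The share of the 1-week log2 change that was left at 4 weeks had a median of -0.058 in the recovered and -0.060 in the reversed class, where 0 is the vehicle level. In 288 of the 506 recovered rows (56.9%) and 260 of the 477 reversed rows (54.5%) the 4-week mean lay beyond vehicle. These counts give only the sign of the difference from vehicle, which was not tested row by row. Rows at the vehicle level would lie on either side in about equal numbers. Over 0.5 of the first change was left in 10 recovered and 47 reversed rows. The median log2 fold changes were -0.73 and 0.79 in the recovered class and 0.79 and -0.87 in the reversed class for the first and second step. At 8 weeks the recovered class was at 5.73 to 6.12 and the reversed class at 5.32 to 5.59, and both ranges overlapped those of vehicle (5.69 to 5.96 and 5.32 to 5.63).

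Single rows of these classes were picked for a large change and for groups that do not overlap, so their course follows from the choice. Row 1224 was at 27.7, 25.9, 36.4 and 33.5 CPM in vehicle, at 2.40, 3.28 and 3.72 CPM at 1 week and at 19.1, 38.2, 44.9 and 28.2 CPM at 4 weeks (3.40 ± 0.295, FDR = 2.55e-06 by edgeR). Row 13441 went from 5.60, 4.38 and 7.45 CPM at 1 week to 22.5, 24.1, 28.8 and 31.5 CPM at 4 weeks (2.22 ± 0.216, FDR = 5.59e-06 by edgeR). Its vehicle libraries were between 12.3 and 15.4 CPM, so the 4-week values were above all of them. Among reversed rows, row 852 had 149, 90.7 and 84.0 CPM at 1 week and 3.10, 1.69, 3.53 and 0.862 CPM at 4 weeks (-5.55 ± 0.394, FDR = 8.11e-07 by edgeR), and 3 of the 4 vehicle libraries had no read. Row 23290 had 94.1, 87.1 and 48.9 CPM at 1 week and 0, 1.27, 9.02 and 0.647 CPM at 4 weeks (-4.72 ± 0.627, FDR = 4.75e-05 by edgeR). Its vehicle libraries were between 3.08 and 9.32 CPM.

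The chow controls hold the first library numbers of the diet experiment. The numbers of the diet-fed libraries lie between them and those of the 1-week libraries. Chow differed from vehicle. In a fit of the 30 in vivo libraries, 316 rows were called higher in chow than in vehicle and 892 lower, which is 2.77% and 7.83% of 11392 rows. Diet mice were not gavaged, so gavage, cohort and number series differ together between these controls. Age may differ too, as it is not given for the vehicle mice. Neither control is a side of the comparison of 4 weeks with 1 week, although the vehicle libraries were in its fit and helped to set the filter and the spread. Of the rows called higher at 4 weeks than at 1 week, 2167 were above the threshold here, and 581 of them (26.8%) were called lower in chow than in vehicle and 19 higher. Of 2768 rows called lower at 4 weeks, 174 (6.29%) were called higher in chow and 5 lower. Both shares are above those over all rows, so the 1-week libraries differed from the 4-week libraries partly in the same rows and the same direction as chow from vehicle.

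The classes differed in where chow stood. In further gains chow was at 1.86 to 2.42, far below the 1-week level, and in further repression it was at 7.01 to 7.20, beside vehicle. Late gains had chow at 4.41 to 4.53, below both vehicle and 1 week, and new repression had it at 6.50 to 6.63, above both. In the recovered class, chow coincided with 1 week. In the reversed class, chow (5.87 to 6.19) lay between vehicle (5.32 to 5.63) and 1 week (6.20 to 6.39). The recovered rows 1224, 13441 and 20813 follow this. Row 20813 had 140, 186, 288 and 210 CPM in the chow libraries, below its 1-week values, and between 1212 and 1708 CPM in vehicle. Row 1224 had between 1.33 and 4.85 CPM in chow, on both sides of its 1-week values, and row 13441 had between 2.47 and 5.11 CPM, overlapping the lowest of its 1-week values. Both were below every vehicle library. The reversed row 852 was the opposite case, with at most 0.570 CPM in any chow library and at most 0.898 CPM in any vehicle library, so that it was high at 1 week against either control. The other named reversed row, 23290, had between 13.3 and 39.1 CPM in chow, above its vehicle libraries and below its 1-week libraries.

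Each week was then set against the control nearest to it in library number. The value is the difference between 4 weeks against vehicle and 1 week against chow. The median of this difference was 1.54 in further gains, 0.57 in late gains, -1.04 in further repression and -0.63 in new repression, compared with 1.25, 0.84, -1.01 and -0.83 between the 2 weeks directly. In the recovered class it was 0.04 instead of 0.79, and in the reversed class -0.38 instead of -0.87. It kept the sign in 97.6% of further gains, 90.8% of late gains, 97.9% of newly repressed rows and all 207 rows of further repression. In the reversed class 87.2% of the rows kept it and in the recovered class 54.3%. Both differences use the same 1-week and 4-week libraries, and over all rows above the threshold 79.3% had the same sign. Vehicle libraries entered both the class rule and the difference set against the controls. An error in them moves it toward 0 in recovered and reversed rows and away from 0 in further gains and further repression. How large this part is was not tested. Row 20813 changed sign, from 1.80 to -0.91. The other named recovered rows, 1224 and 13441, went from 3.40 to 0.07 and from 2.22 to 0.49. Calls numbered 368 higher and 357 lower. This difference rests on 4 group means, and its median standard error was 0.325 against 0.206. With chow as the early control, 12 rows were recovered and 21 reversed. How much of the recovered and reversed classes belongs to CCl4 was not tested, as the 1-week group has no control of its own.

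The rows called between 1 and 4 weeks were also examined at 8 weeks against vehicle. Here 23.9% of 12340 rows were called higher and 26.3% lower. Of the 2791 rows called higher at 4 weeks, 1605 (57.5%) were higher and 60 lower at 8 weeks against vehicle. Of the 2809 rows called lower, 1929 (68.7%) were lower and 84 higher. The classes differed in this. The median log2 fold change at 8 weeks against vehicle was 4.34 in further gains, 0.68 in late gains, -1.73 in further repression and -0.81 in new repression, and it was 0.01 in recovered and -0.06 in reversed rows. The classes were themselves defined against the same vehicle libraries. Between 4 and 8 weeks the class medians moved little, by 0.33 in further gains and by between -0.07 and 0.10 in the other classes. Row 6798 had 1109, 606 and 975 CPM at 8 weeks, beside 612 to 757 CPM in vehicle and 1005 to 1865 CPM at 4 weeks. It was called neither at 8 weeks against vehicle (log2 fold change 0.37, FDR = 0.169 by edgeR) nor at 8 against 4 weeks (-0.66, FDR = 0.206 by edgeR).

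Mice fed Western diet, with fructose in their water, for 24 weeks were compared with chow as a second model of injury, with 26.4% of 12265 rows called higher and 18.3% lower. These libraries did not enter the classes. Among further gains 84.4% of 499 rows were called higher under the diet, and among late gains 52.8% of 1552 rows. Among rows of further repression 68.6% of 207 were called lower, and among those of new repression 48.2% of 2115. Recovered rows were higher in 20.6% and lower in 5.50%, and reversed rows higher in 12.6% and lower in 21.3%. In the first 4 classes the median log2 fold changes under the diet were 3.2, 0.55, -1.02 and -0.60, in this order, and in recovered and reversed rows they were 0.15 and -0.17. Over all rows above the threshold the median was 0.00. Row 11184 fell under the diet as well (-3.91, FDR = 0.00256 by edgeR), and row 12137 rose (5.51, FDR = 3.6e-07 by edgeR).

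HSCs isolated from healthy mice and cultured for 12 days were compared with cells at day 0. Here 44.3% of 11926 rows were called higher and 38.7% lower, so most rows changed. Technical triplicates are described for these cultures in the study's methods, so the culture libraries may not be separate mice. Further gains were higher in 70.0% of 360 rows and lower in 20.8%, and late gains in 62.5% and 20.5% of 1502 rows. Further repression was lower in 84.3% of 204 rows and higher in 8.33%, and new repression in 61.8% and 23.2% of 2075 rows. Recovered rows, at 44.0% higher and 34.3% lower, and reversed rows, at 46.8% and 37.4%, were near the share over all rows. The other 178 further gains were not tested above the level threshold in culture. Row 17921, almost without reads before 4 weeks of CCl4, rose in culture (12.33, FDR = 1.7e-14 by edgeR), and so did row 21677 (7.03, FDR = 2.24e-11 by edgeR).

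**Figure D5:**
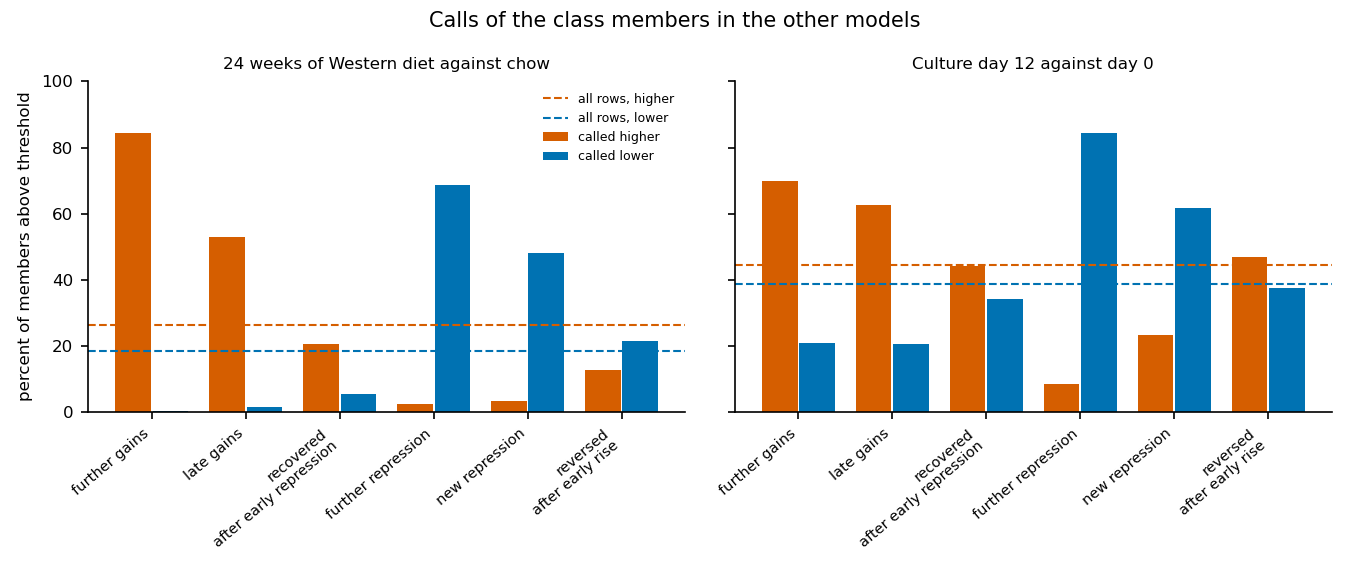
Percent of the members of each class above the level threshold that were called higher or lower at 24 weeks of Western diet against chow (left) and on culture day 12 against day 0 (right), with the share over all rows as dashed lines. Further gains (84.4% higher) and further repression (68.6% lower) stand farthest from the dashed lines under the diet, and recovered and reversed rows lie near them in culture.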

How the data were processed

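Polyadenylated RNA of sorted HSCs was sequenced on an Illumina platform after NEBNext Ultra library preparation. The authors deposited unadjusted exon counts per gene: STAR alignments to mm10 were counted by HOMER over the exons of 1 transcript for each gene, regardless of strand, and reads stacked at one position were counted up to 3 times. Versions are not given in the sources used here. The cap on reads per position compresses the highest rows. Columns were matched to samples by title. Each table carries a counting command in its header, and these commands list identical source libraries, so the titles are the only link between columns and samples. Rows of the 3 tables were taken as the same gene, with Spearman correlations of mean counts of 0.959 (diet) and 0.934 (culture) to the CCl4 table. Of the identifiers, 23659 of 23999 matched RefSeq, but the counts did not follow them.

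Counts were tested with edgeR 4.0.16 in R 4.3.3 (TMM, filterByExpr, quasi-likelihood test, Benjamini-Hochberg adjustment) with all 14 CCl4 libraries in 1 fit. The 16 diet, 15 culture and 30 in vivo libraries were fitted likewise. Figures were made in Python 3.11.15 with matplotlib. Libraries were taken as separate mice in every fit. Among the CCl4 libraries no pair of replicates agreed within sampling noise, and the diet and culture libraries were not checked. For the cultures the study's methods name technical triplicates, but for the sequencing they name biological replicates. Rows named are the 2 with the largest change per class among those whose groups do not overlap and whose highest group mean is at least 16 CPM, and the 3 most abundant called rows per direction. Rows, classes and lists were chosen with earlier results of these data known. The count test was checked on simulated data. Alternatives were other scalings (library totals, DESeq2 size factors), DESeq2 1.42.0, the edgeR exact test, other filters and thresholds, fewer groups, the replicate letter, thinned counts, controls by number series and leaving out libraries. Gene-level annotation, motifs and sequences were not used here.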

Additional observations from a re-analysis of the deposited data

Results flagged for a closer look

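Of 50 groups of 4 libraries examined in the named rows and library measures, 4 held a library far from the others by Dixon's ratio. Its limit allows about 1 in 20 by chance for independent, normally distributed values, and groups with few reads are not such values. Row 852 had 0.898 CPM (4 reads) in vehicle library C and no read in the other vehicle libraries. In 4-week library C, row 6781 was at 1.37 CPM (7 reads) and row 23290 at 9.02 CPM (46 reads). Both values lay above the other 4-week libraries and below every 1-week library. Row 7597 was at 1411 CPM in 4-week library A, below the others of its group. Library A was also lowest in rows 11319 and 2951 without passing the same limit.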

How the results depend on the processing

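All alternatives were planned. Under scaling, DESeq2, filter and thinning alternatives the counts stayed within 1.5 times, and the 18 named rows kept direction and call with library totals and DESeq2. At an FDR of at most 0.01, 1737 rows were higher and 1855 lower, with 325 further gains, 187 recovered, 58 further repressed and 179 reversed. Requiring a 2-fold change in each step called left 1151 higher, 1073 lower, 336 further gains, 760 late gains, 55 recovered, 35 further repressed, 938 newly repressed and 100 reversed rows. A log2CPM above 4 left 262 further gains. The exact test gave 816 recovered, 449 further repressed and 839 reversed rows, and fits of only the compared groups gave 766, 398 and 775. The cause was not tested. With controls of the same library number series there were 368 higher and 357 lower rows, with 111 further gains, 245 late gains, 12 recovered, 40 further repressed, 296 newly repressed and 21 reversed, 10 of the 18 named rows lost their call, among them row 20813, whose value changed sign to -0.91.

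Leaving out 1 library gave 1943 to 2898 higher and 2167 to 2896 lower rows, 366 to 574 further gains, 1335 to 1921 late gains, 203 to 584 recovered, 70 to 269 further repressed, 1736 to 2298 newly repressed and 213 to 593 reversed rows. Recovered, further repressed and reversed rows numbered 205, 77 and 270 without 1-week library A and 203, 70 and 213 without B. Further repression held 125 rows without 1-week library C and 131 without vehicle library D. The difference of 0.395 on the vehicle to 8 weeks line was between 0.348 and 0.419, that of 0.250 on the diet line between 0.218 and 0.266, and that of the library median between 0.008 and 0.026.

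Letters are shared between groups. As a replicate block they gave 2483 higher, 2555 lower and 315 recovered rows. Same-letter deviations of 1-week and 4-week libraries correlated at -0.080 to 0.072, and 1 of the 3 1-week libraries correlated best with its own letter, so letters were not taken as pairs. Depth limits rows near the floor.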
